A study of Homo sapiens with 8 samples.

Results

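The biliary and progenitor epithelial markers described here are 9 genes: the keratins KRT7, KRT8, KRT18, KRT19 and KRT23, the transcription factor SOX9, the secreted phosphoprotein SPP1, the surface glycoprotein CD24 and the annexin ANXA4. They were chosen by symbol from a table of 24462 genes, and all 9 were in it. Per RefSeq, KRT7, KRT8 and KRT18 lie on chromosome 12, KRT19, KRT23 and SOX9 on chromosome 17, ANXA4 on chromosome 2, SPP1 on chromosome 4 and CD24 on chromosome 6. The study sequenced RNA from HepG2, a human liver cancer line labelled hepatocellular carcinoma, in which EDN1, the gene of the vasoconstrictor peptide endothelin-1, was overexpressed (4 libraries, EDN1 1 to 4), with mock HepG2 cells as the control (4 libraries, mock 1 to 4). Both groups were grown in the same serum-containing medium with antibiotics, and no further treatment is labelled. The labels do not give the vector or promoter used, the number of clones, or whether each library had its own culture. The p-values therefore reflect the spread among these libraries, which may be technical.

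Keratins form the intermediate filaments of epithelia, and each filament pairs a type II with a type I keratin. Adult hepatocytes carry chiefly the pair of KRT8 (type II) and KRT18 (type I), whereas cholangiocytes, the cells that line bile ducts, add KRT7 (type II) and KRT19 (type I). SOX9, SPP1 (osteopontin) and CD24 are used to mark bile duct cells and liver progenitor cells, and several of these genes are also expressed in liver tumours.

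The libraries held 8571252 to 11686180 counts in EDN1 overexpression and 8409173 to 14932385 in mock. EDN1 itself averaged 363 ± 149 CPM in EDN1 overexpression and 1.45 ± 0.561 CPM in mock (CPM are counts scaled by TMM library size; mean ± SD, n = 4 each), and each library matched its label. Hepatocyte markers were present in every library: the summed level of 10 of them, ALB, APOB and HNF4A included, was 6075 to 8200 CPM in EDN1 overexpression and 5988 to 8355 CPM in mock. Defining endothelial and blood markers were at or near 0, with KDR and CD3E at 0 counts in all 8 libraries and PTPRC at no more than 1. The blood list still summed to 390 to 785 CPM in EDN1 overexpression and 422 to 776 CPM in mock, mostly from LYZ (522 CPM in EDN1 overexpression and 632 CPM in mock on average). The fibroblast and stellate list summed to 38.9 to 269.9 CPM in EDN1 overexpression and 34.4 to 192.0 CPM in mock, mostly from ACTA2 (132 CPM in EDN1 overexpression and 141 CPM in mock on average), with LUM and LRAT at 0 counts. Of these lists, 3 blood, 3 fibroblast and 0 endothelial genes passed the low count filter, and 0 were called. Genes used to mark bile duct cells were mixed: CFTR had 0 counts throughout and KRT7 at most 4 in any library, while KRT19 was at 258.4 CPM or more and SOX9 at 114.4 CPM or more in every library, and CLDN4, a tight junction gene, averaged 121 CPM in EDN1 overexpression and 107 CPM in mock.

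Mock 4, EDN1 3 and EDN1 4 (the second library set) stand apart from the other 5 libraries (the first set) across the transcriptome, and no label gives a batch. The libraries also differ in size in a way that crosses the groups: EDN1 1, EDN1 3, mock 1 and mock 4 each held over 10000000 counts (the deeper libraries), and the other 4 held fewer (the shallower libraries). Values within these subsets are given below where they bear on a marker.

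After the filter on low counts, 8 of the 9 markers were among the 12577 genes tested. In edgeR (quasi-likelihood test, p-values adjusted by Benjamini-Hochberg over all tested genes), 0 of these 8 passed the threshold of 0.05, where 0.00795% of all tested genes did, which is EDN1 alone. DESeq2 and limma voom also called 0 of the 8. At an unadjusted p under 0.05 in edgeR there was 1 of the 8 (CD24), beside 2.85% of all tested genes. In DESeq2 CD24 (unadjusted p = 0.0169) and KRT19 (0.0494) were under it, beside 403 of all 12577 genes. In limma voom it was CD24 (0.0262), beside 377 genes. As a description, 6 of the 8 had positive fold changes, beside 50.3% of all tested genes, and their median log2 fold change was 0.08, beside 0.00099 over all tested genes. The adjusted p of every one of the 8 rounded to 1.00 in that edgeR test, so the values below describe these libraries and show no called change. In a bulk measurement, fewer cells of a type and less RNA per cell cannot be told apart.

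**Figure D1:**
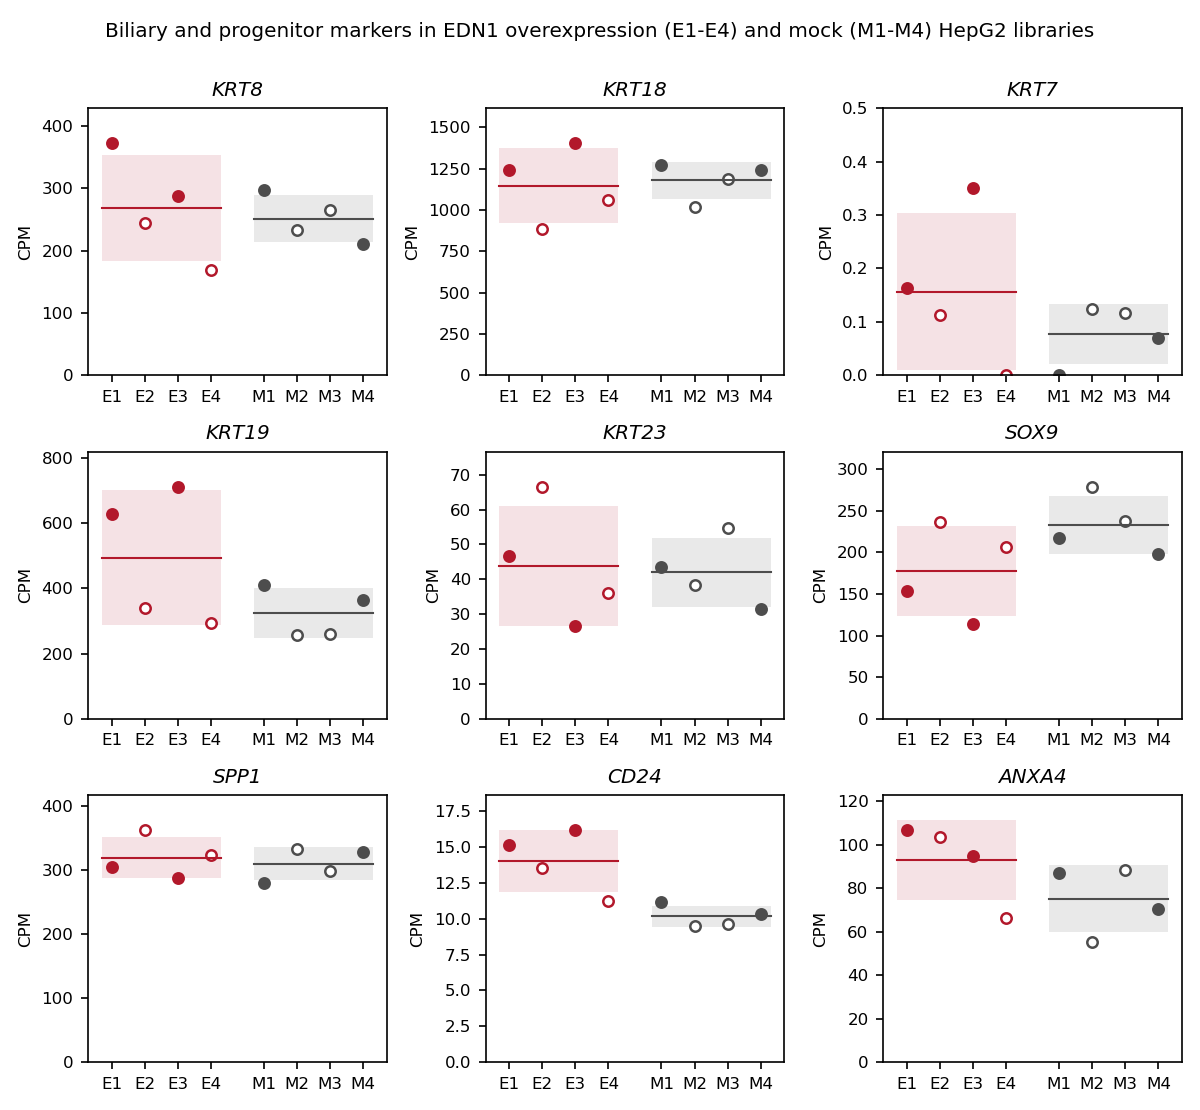
Level of each marker in CPM (linear axis from 0) in the 4 EDN1 overexpression libraries (E1 to E4, red) and the 4 mock libraries (M1 to M4, grey); lines are group means, shaded bands 1 SD, filled points the deeper libraries and open points the shallower ones. CD24 is the one panel in which all red points lie above all grey ones, while KRT19 shows 2 red points, E1 and E3, far above the rest, and KRT7 stays under 0.5 CPM.

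KRT8 and KRT18 make up the filament pair of hepatocytes. KRT8 stood at 372.9, 244.4, 287.2 and 168.8 CPM in EDN1 overexpression 1 to 4, against 297.2, 233.1, 264.7 and 210.7 CPM in mock 1 to 4. The highest and the lowest of the 8 libraries were both EDN1 overexpression libraries, and the groups overlapped. The KRT8 log2 fold change was 0.09 (SE 0.23, 95% interval -0.41 to 0.60), and without EDN1 1 it was -0.11. Within the deeper libraries it was 0.38 and within the shallower ones -0.27.

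KRT18 stood at 1240.8, 885.1, 1405.9 and 1061.6 CPM in EDN1 overexpression 1 to 4, against 1274.7, 1020.4, 1185.8 and 1239.8 CPM in mock 1 to 4. The groups overlapped, with the EDN1 overexpression libraries at both ends of the range. The KRT18 log2 fold change was -0.04 (SE 0.17, 95% interval -0.43 to 0.35), and without EDN1 2 it was 0.07. All 4 deeper libraries lay above all 4 shallower ones in KRT18, as they did in 2.98% of all tested genes. The part of library size in these values was not tested.

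The proportion of KRT8 to KRT18 within a library does not depend on its total count, and is read here only across libraries, since tags are not scaled by gene length. The ratio of KRT8 to KRT18 CPM was 0.301, 0.277, 0.205 and 0.159 in EDN1 overexpression 1 to 4, against 0.233, 0.229, 0.224 and 0.170 in mock 1 to 4. The lowest values were those of EDN1 4, mock 4 and EDN1 3, which form the second library set. The log2 difference between the 2 keratins was -2.13 ± 0.42 in EDN1 overexpression and -2.24 ± 0.21 in mock (SD, n = 4 each). The groups differed by 0.10, which is less than the spread between libraries (two-sided p = 0.657 by an exact permutation test, which cannot go below 0.0286 in this design). The same difference averaged -2.50 in the second library set and -1.995 in the first. Within the first set both EDN1 overexpression libraries lay above the 3 mock libraries, by 0.34 on average on the log2 scale, whereas in the second set mock 4 lay between EDN1 3 and EDN1 4.

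Counts of this pair carry an added uncertainty. Both genes have processed copies elsewhere in the genome: of the last 500 bases of the principal GENCODE 29 transcript, where tags of this library type lie, 68.8% of KRT8 and 88.2% of KRT18 matched transcripts of other genes at 95% identity or more over at least 50 bases. The matches were KRT8P45, KRT8P3 and MANBA for KRT8, and KRT18P10 and KRT18P11 for KRT18. How the authors treated reads with several matches is not given in the sources used here. Annotated exons of KRT8 and KRT18 also overlap on opposite strands, though the last 500 bases of neither matched the other. For KRT19, KRT23, SOX9, SPP1, CD24 and ANXA4 the share was 0%. This check covers GENCODE 29 transcripts only. How reads of any marker, CD24 included, were placed in hg19, the build named for the counts, was not examined.

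**Figure D2:**
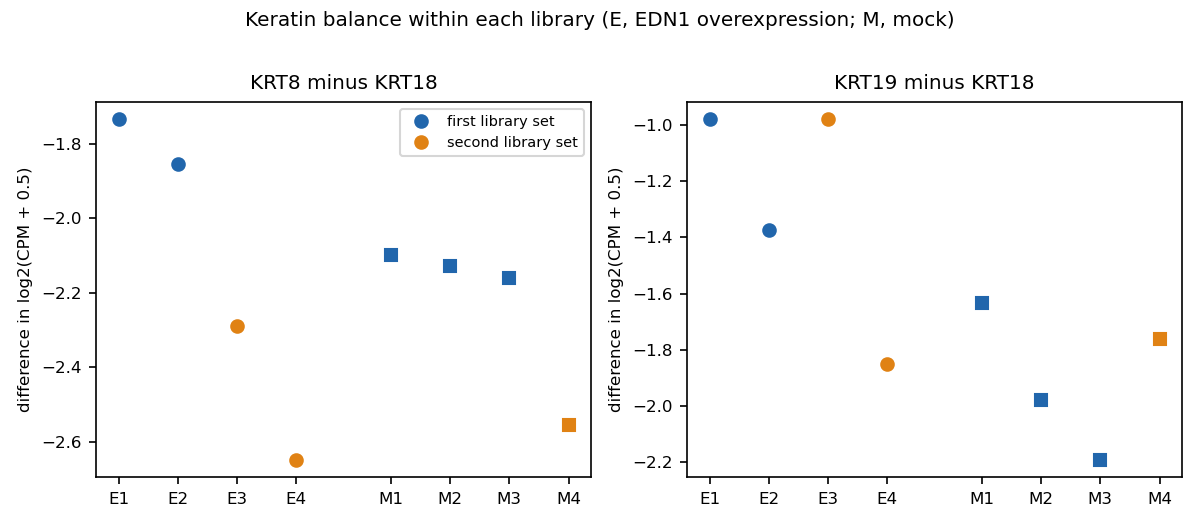
Difference in log2(CPM + 0.5) between KRT8 and KRT18 (left) and between KRT19 and KRT18 (right) in each EDN1 overexpression (E1 to E4, circles) and mock (M1 to M4, squares) library, coloured by library set. On the left the 3 orange points of the second set are the lowest, down to -2.65 in E4; on the right E1 and E3 share the highest value of -0.98.

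KRT7, the type II keratin of bile ducts, was not detectable above the counting limit in all libraries but EDN1 3. It had 2, 1, 4 and 0 counts in EDN1 overexpression 1 to 4, against 0, 1, 1 and 1 counts in mock 1 to 4. A count of 0 allows up to 3 counts, or 0.201 to 0.357 CPM depending on the library. Summed over a group this was 0.173 CPM in EDN1 overexpression (exact 95% Poisson interval 0.0693 to 0.355) and 0.0674 CPM in mock (0.0139 to 0.197). These intervals overlap and cover counting error only. KRT7 did not pass the filter and was not tested, so no comparison of KRT7 with KRT19 was made. Its antisense neighbour KRT7-AS matched 27.2% of the last 500 bases of the KRT7 transcript.

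KRT19, the type I keratin of bile ducts and the smallest of the keratins, was detected in every library and had the largest fold change of the 8 tested markers. It stood at 628.9, 341.1, 712.4 and 294.4 CPM in EDN1 overexpression 1 to 4, against 410.7, 258.4, 259.1 and 365.7 CPM in mock 1 to 4. EDN1 1 and EDN1 3 lay far above all other libraries, while EDN1 2 and EDN1 4 lay within the mock range. KRT19 averaged 494 ± 207 CPM in EDN1 overexpression and 323.5 ± 77.0 CPM in mock (SD, n = 4 each). Its log2 fold change was 0.61 with an SE of 0.30 (95% interval -0.04 to 1.27), or 1.53-fold, with an unadjusted p of 0.0642 and an edgeR adjusted p of 1.00. Without EDN1 3 the log2 fold change was 0.38 and without EDN1 4 it was 0.79. By library set it was 0.65 (SE 0.30) in the first and 0.45 (SE 0.49) in the second, where the lone mock library is assumed to vary like the EDN1 overexpression libraries.

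KRT19 was also higher in the deeper libraries. Within each group both deeper libraries lay above both shallower ones, and 2.98% of tested genes had all 4 deeper libraries above all 4 shallower ones. In the deeper libraries KRT19 averaged 671 CPM in EDN1 overexpression and 388 CPM in mock, and the groups did not overlap. In the shallower libraries it averaged 317.7 CPM in EDN1 overexpression and 258.7 CPM in mock, again with no overlap. Of all tested genes, 3.16% were higher with no overlap in both subsets. With the log2 library total as a term, the KRT19 log2 fold change was 0.69 (SE 0.22) and the edgeR adjusted p was 0.936. The subsets and this term were chosen after seeing the data, and the part of library size in the KRT19 values was not tested further.

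Set against KRT18 in the same library, KRT19 was at a ratio of 0.507, 0.386, 0.507 and 0.278 in EDN1 overexpression 1 to 4, against 0.323, 0.254, 0.219 and 0.295 in mock 1 to 4. EDN1 1, EDN1 2 and EDN1 3 lay above all mock libraries, and EDN1 4 lay between mock 2 and mock 4. This ratio was chosen after seeing the values and was not tested.

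Over the 8 libraries, KRT19 was the marker with the widest spread, with an SD of log2 CPM of 0.55, and KRT23 came next with 0.42, beside a median of 0.27 over the 8697 tested genes of at least 10 CPM. The genes whose centred log2 CPM lay nearest to that of KRT19 were DBI, FDPS and CRELD2, at root mean square differences of 0.0955, 0.112 and 0.114 over 8 libraries. DBI encodes an acyl-CoA-binding protein, FDPS encodes farnesyl diphosphate synthase of the isoprenoid pathway, and CRELD2 encodes a protein of the endoplasmic reticulum. DBI stood at 518.0, 295.2, 623.0 and 261.3 CPM in EDN1 overexpression 1 to 4, against 314.1, 215.2, 248.4 and 289.5 CPM in mock 1 to 4. EDN1 1 and EDN1 3 were thus also the highest libraries for DBI. These 3 genes were picked for their likeness over the same libraries, so their agreement with KRT19 is a description.

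**Figure D3:**
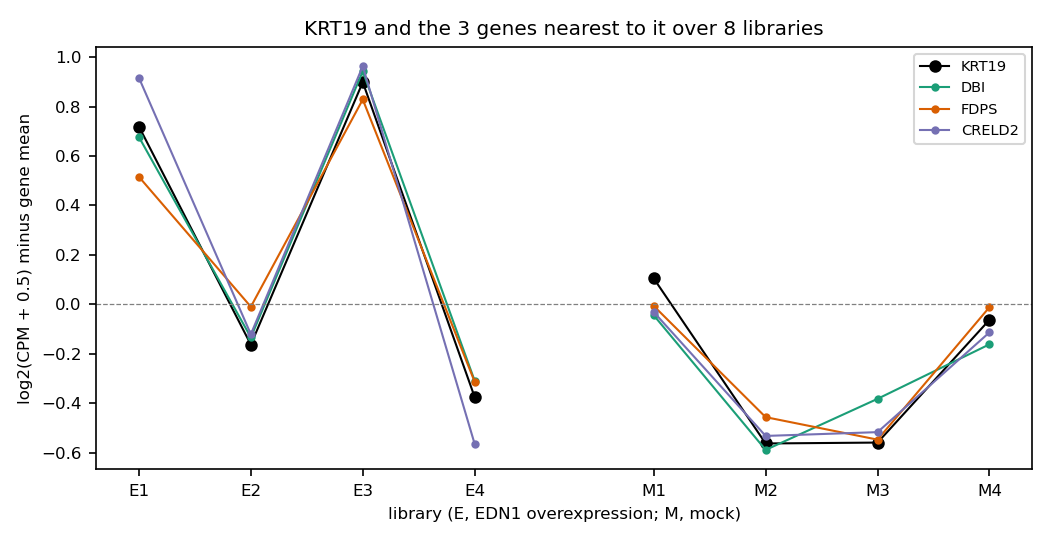
Centred log2(CPM + 0.5) of KRT19 (black) and of the 3 genes nearest to it, DBI, FDPS and CRELD2, in the EDN1 overexpression (E1 to E4) and mock (M1 to M4) libraries; lines only guide the eye within a group, whose libraries have no order. All 4 genes are highest in E1 and E3 and lie below their mean in E4, M2 and M3.

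KRT23, a type I keratin reported in hepatobiliary cells, stood at 46.7, 66.6, 26.5 and 36.0 CPM in EDN1 overexpression 1 to 4, against 43.5, 38.3, 54.6 and 31.4 CPM in mock 1 to 4. The highest library was EDN1 2 and the lowest EDN1 3, and the groups overlapped. The KRT23 log2 fold change was 0.07 (SE 0.27, 95% interval -0.54 to 0.68), and it ran from -0.20 without EDN1 2 to 0.25 without EDN1 3. By library set KRT23 averaged 31.3 CPM in the second set and 49.9 CPM in the first. Its nearest genes over the 8 libraries were UCKL1-AS1, INO80D and PCK2, at root mean square differences of 0.138, 0.145 and 0.146. INO80D encodes a subunit of a chromatin remodelling complex and PCK2 the mitochondrial phosphoenolpyruvate carboxykinase. The 3 genes averaged 22.8, 17.7 and 122.2 CPM in the second set, against 36.6, 27.5 and 182.0 CPM in the first. They too were picked for their likeness over the same libraries, so sharing the set difference of KRT23 is a description.

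SOX9, the transcription factor of bile duct and progenitor cells, was the tested marker with the most negative fold change. It stood at 153.7, 236.9, 114.4 and 206.2 CPM in EDN1 overexpression 1 to 4, against 216.9, 279.2, 238.0 and 198.5 CPM in mock 1 to 4. EDN1 1 and EDN1 3, the libraries with the most KRT19, had the least SOX9 and lay below all mock libraries, while EDN1 2 and EDN1 4 lay within the mock range. EDN1 1 and EDN1 3 are also the deeper EDN1 overexpression libraries. Within each group both deeper libraries had less SOX9 than both shallower ones, the reverse of KRT19. The part of library size in the SOX9 values was not tested. The SOX9 log2 fold change was -0.39 (SE 0.22, 95% interval -0.89 to 0.10) with an unadjusted p of 0.109 and an edgeR adjusted p of 1.00. The fold change was -0.23 without EDN1 3 and -0.56 without EDN1 2, and by library set it was -0.33 in the first and -0.32 in the second. The value of the second set rests on mock 4 as its only mock library. The groups did not overlap within the deeper libraries (134.1 CPM in EDN1 overexpression and 207.7 CPM in mock on average). Nor did they within the shallower ones (221.6 CPM in EDN1 overexpression and 258.6 CPM in mock on average). There the margin was narrow, with EDN1 2 at 236.9 CPM and mock 3 at 238.0 CPM. In the lower direction, 2.24% of tested genes showed no overlap in both subsets. The antisense gene SOX9-AS1 had at most 13 counts in any library.

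SPP1, which encodes the secreted matrix protein osteopontin, was the steadiest of the tested markers. It stood at 305.1, 362.8, 287.9 and 323.8 CPM in EDN1 overexpression 1 to 4, against 280.6, 333.7, 298.6 and 329.2 CPM in mock 1 to 4. The groups overlapped almost fully, and the SD of log2 CPM over the 8 libraries was 0.12, a spread that 5.28% of tested genes of at least 10 CPM matched or stayed under. The SPP1 log2 fold change was 0.04 (SE 0.14, 95% interval -0.26 to 0.35). It was -0.003 without mock 1 and -0.02 without EDN1 2, so its direction is not fixed by these data.

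CD24, a glycosylphosphatidylinositol-anchored surface protein gene, had the smallest p of the tested markers. It had 186, 119, 184 and 97 counts in EDN1 overexpression 1 to 4, against 143, 77, 83 and 149 counts in mock 1 to 4. These were 15.1, 13.5, 16.1 and 11.2 CPM in EDN1 overexpression, against 11.2, 9.5, 9.6 and 10.3 CPM in mock. All 4 EDN1 overexpression libraries lay above all 4 mock libraries, which 1.38% of all tested genes also did in this direction, but EDN1 4 exceeded mock 1 only narrowly (11.20 CPM in EDN1 4 and 11.16 CPM in mock 1). With CPM on library totals instead of TMM-scaled sizes, an alternative chosen after seeing the data, the groups overlapped (lowest 10.6 CPM in EDN1 overexpression, highest 11.5 CPM in mock). The CD24 log2 fold change was 0.46 (SE 0.18, 95% interval 0.07 to 0.85), or 1.38-fold, with an unadjusted p of 0.0240 and an edgeR adjusted p of 1.00. It kept a positive sign in every alternative tried, and was 0.50 in the first library set and 0.40 in the second, where mock 4 is the only mock library.

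The promoters of SPP1, the steadiest tested marker, and CD24, the one whose groups did not overlap, are shown side by side (sequences from RefSeq). The stretches run from 250 bases before to 50 bases after the annotated start, in build GRCh38.p14, which is not the build named for the counts, with any match to the searched motifs in capitals. SPP1 lies at chr4:87975464-87975763 on the + strand and CD24 at chr6:106975578-106975877 on the - strand.
SPP1: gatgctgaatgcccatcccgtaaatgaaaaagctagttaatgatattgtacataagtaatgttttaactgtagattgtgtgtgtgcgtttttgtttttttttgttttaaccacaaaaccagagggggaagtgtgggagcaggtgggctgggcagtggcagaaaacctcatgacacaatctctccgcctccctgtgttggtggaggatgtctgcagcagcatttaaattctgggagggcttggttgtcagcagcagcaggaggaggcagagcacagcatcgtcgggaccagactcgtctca
CD24: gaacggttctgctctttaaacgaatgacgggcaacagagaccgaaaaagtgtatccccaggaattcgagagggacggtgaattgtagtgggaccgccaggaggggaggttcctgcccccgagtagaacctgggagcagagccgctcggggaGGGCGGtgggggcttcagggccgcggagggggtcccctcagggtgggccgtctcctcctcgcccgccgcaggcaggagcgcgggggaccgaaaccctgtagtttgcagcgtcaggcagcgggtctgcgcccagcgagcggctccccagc
The motifs searched on both strands were the TATA box TATAAA, the GC box GGGCGG, the SOX core AACAAT and the core TGGGAA bound by the Notch effector RBPJ. The CD24 stretch held 1 GC box, 99 bases before the start, and the SPP1 stretch held none of the 4 motifs. Among the other members with a promoter in the source, ANXA4, whose groups overlapped, held 6 GC boxes. KRT8 held none of the 4 motifs. SPP1 and CD24 were picked from the results above, and no link of motif to fold change was tested. Of 35116 promoters of this length in the table, 45.0% held the GC box, 11.5% the TATA box, 10.1% the SOX core and 24.0% the RBPJ core. G and C made up 66.7% of the CD24 stretch and 47.7% of the SPP1 stretch. A match describes these letters only and says nothing of binding.

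ANXA4, a calcium-dependent phospholipid-binding protein gene, stood at 106.6, 103.4, 94.98 and 66.2 CPM in EDN1 overexpression 1 to 4, against 86.9, 55.5, 88.2 and 70.4 CPM in mock 1 to 4. EDN1 1, EDN1 2 and EDN1 3 lay above all mock libraries, and EDN1 4 lay below all mock libraries but mock 2. The ANXA4 log2 fold change was 0.30 (SE 0.20, 95% interval -0.14 to 0.74) with an unadjusted p of 0.158. It was 0.18 without mock 2 and 0.43 without EDN1 4. By library set it was 0.45 in the first and 0.18 in the second, where mock 4 is the only mock library.

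**Figure D4:**
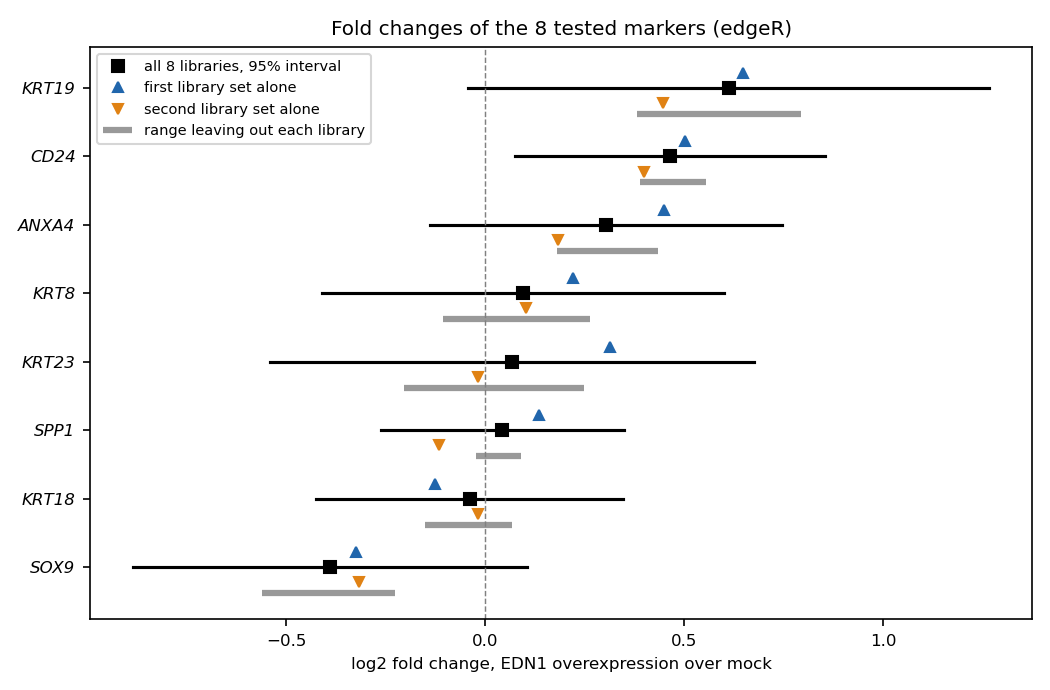
Log2 fold change of the 8 tested markers, EDN1 overexpression over mock, with the 95% interval of the fit on all 8 libraries (black), the estimates within the first (blue) and second (orange) library sets, and the range of estimates when each library is left out (grey bar). KRT19 and CD24 lie furthest right and SOX9 furthest left; the interval of CD24, 0.07 to 0.85 before adjustment, is the one that does not cross 0.

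EDN1 4 differed from the other EDN1 overexpression libraries in several markers at once. Its KRT8, KRT19, CD24 and ANXA4 levels were the lowest of the EDN1 overexpression group, and it had the most EDN1 (548.8 CPM, against 228.0, 259.1 and 417.8 CPM in EDN1 1 to 3). EDN1 4 is also a shallower library of the second set. Leaving it out gave log2 fold changes of 0.79 for KRT19, 0.55 for CD24 and 0.43 for ANXA4. Since EDN1 4 was singled out for its low levels of these genes, higher fold changes without it follow from that choice. Without EDN1 4, 0 of the 8 markers passed the threshold.

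Other genes tied to bile duct and progenitor cells were described from a list of 25, of which 13 were tested and 0 passed the threshold in either direction by edgeR's quasi-likelihood test. DESeq2 and limma voom also called 0 of the listed genes, here and in the lists that follow, and each list had at most 1 gene at an unadjusted p under 0.05. Of the 13, 9 had positive fold changes and the median log2 fold change was 0.13. Besides CFTR (a chloride channel gene) at 0 counts, the water channel gene AQP1 had at most 1 count and the mucin gene MUC1 at most 2. EPCAM, an epithelial adhesion gene of progenitors, averaged 64.5 CPM in EDN1 overexpression and 59.1 CPM in mock. The CLDN4 groups overlapped, and the gene differed by 0.18 on the log2 scale with an SE of 0.185. DLK1, a fetal liver gene, averaged 342 ± 129 CPM in EDN1 overexpression and 506 ± 137 CPM in mock (SD, n = 4 each), with a log2 fold change of -0.57 (SE 0.29). EPCAM and CLDN4 were named for their levels, and DLK1 for a p-value among the smallest of the list. In the lists that follow, genes named for a small p are also more likely to have groups without overlap. Of all tested genes, 1.38% were higher in EDN1 overexpression without overlap.

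Of 50 other keratins, 28 had 0 counts in all libraries, 13 had at most 3 and 9 went above 3 in some library. Of these 50, 3 were tested and 0 passed. KRT15, a type I keratin of basal epithelia, averaged 1.47 ± 0.366 CPM in EDN1 overexpression and 0.611 ± 0.209 CPM in mock (SD, n = 4 each), without overlap. Its log2 fold change was 1.21 (SE 0.37, unadjusted p = 0.00754, edgeR adjusted p = 1.00). KRT15 had only 3 to 21 counts per library. Its mock level was below the 10 counts that the filter asks of a library of median size. It was thus tested only through its EDN1 overexpression libraries, a selection that favours higher values there. Its p and lack of overlap are no evidence of a change. KRT80, an epithelial type II keratin, showed a log2 fold change of 0.61 (SE 0.45) at 1.98 CPM in EDN1 overexpression and 1.32 CPM in mock. The third tested keratin, KRT10, averaged 148.9 CPM in EDN1 overexpression and 154.9 CPM in mock.

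Genes that link keratin filaments to junctions, with other intermediate filaments, had 17 of 19 members tested and 0 passed. Their median log2 fold change was 0.04, with 12 of 17 positive. SYNM, an intermediate filament gene that binds other filaments, averaged 4.40 ± 1.11 CPM in EDN1 overexpression and 1.66 ± 0.685 CPM in mock (SD, n = 4 each). Its groups did not overlap, which 1.38% of all tested genes also showed in this direction. The SYNM log2 fold change was 1.43 (SE 0.36, unadjusted p = 0.00255, edgeR adjusted p = 1.00). JUP, the junction protein plakoglobin, averaged 164.5 ± 11.2 CPM in EDN1 overexpression and 137.0 ± 15.0 CPM in mock, also without overlap, with a log2 fold change of 0.26 (SE 0.14). VIM, the mesenchymal filament gene vimentin, had at most 3 counts in any library.

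Notch signalling directs bile duct fate in the developing liver and acts upstream of SOX9 there. Of 26 genes of the pathway, 19 were tested and 0 passed, with 13 negative fold changes and a median log2 fold change of -0.13. MFNG, which encodes a glycosyltransferase that modifies Notch receptors, averaged 11.4 ± 4.24 CPM in EDN1 overexpression and 24.2 ± 7.75 CPM in mock (SD, n = 4 each), with a log2 fold change of -1.08 (SE 0.31, unadjusted p = 0.00518) and groups that overlapped. HES1, a target gene of Notch, averaged 68.7 ± 30.8 CPM in EDN1 overexpression and 114.7 ± 40.4 CPM in mock; the log2 fold change was -0.74 (SE 0.34, unadjusted p = 0.0526). The ligand JAG1 averaged 318 CPM in EDN1 overexpression and 412 CPM in mock. Of the receptors, NOTCH1 averaged 1.51 CPM in EDN1 overexpression and 1.37 CPM in mock, while NOTCH2, NOTCH3 and NOTCH4 did not pass the filter. JAG1 and the receptors were named for their levels.

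Of 16 other SOX genes, 8 were tested and 0 passed, with a median log2 fold change of 0.006. SOX4, which is active in liver progenitors alongside SOX9, averaged 130.1 ± 48.8 CPM in EDN1 overexpression and 96.0 ± 21.9 CPM in mock (SD, n = 4 each), with a log2 fold change of 0.44 (SE 0.27). SOX13 showed a log2 fold change of -0.28 (SE 0.21).

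Receptors of osteopontin and related matrix genes had 5 of 18 members tested and 0 passed, with a median log2 fold change of -0.06. The osteopontin receptor CD44 had at most 4 counts in any library. The integrin subunit ITGAV, which pairs with several beta subunits to bind osteopontin, averaged 53.2 ± 3.40 CPM in EDN1 overexpression and 42.7 ± 3.67 CPM in mock (SD, n = 4 each). Its groups did not overlap, and its log2 fold change was 0.32 (SE 0.13, unadjusted p = 0.0374). The metalloproteinase gene MMP3 showed a log2 fold change of -1.22 (SE 0.78) at 1.38 CPM in EDN1 overexpression and 3.15 CPM in mock.

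Other annexins and their S100 partners had 10 of 14 members tested and 0 passed, with a median log2 fold change of 0.02. S100A6, a calcium-binding protein gene, averaged 734 ± 163 CPM in EDN1 overexpression and 526.3 ± 16.6 CPM in mock (SD, n = 4 each), without overlap and with a log2 fold change of 0.48 (SE 0.17, unadjusted p = 0.0198). ANXA2, the membrane-binding partner of S100A10, showed a log2 fold change of -0.40 (SE 0.24), on the other side of 0 from that of ANXA4. Of 9 genes for CD24 ligands and signalling, 4 were tested and 0 passed, with a median log2 fold change of -0.15. The kinase gene SRC averaged 142.5 ± 42.6 CPM in EDN1 overexpression and 182.5 ± 14.92 CPM in mock, with a log2 fold change of -0.36 (SE 0.21), and that of FYN, a related kinase gene, was -0.72 (SE 0.58).

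Of the 10 hepatocyte markers, all were tested and 0 passed, with a median log2 fold change of -0.05. AFP, the fetal plasma protein gene that liver progenitors and tumours express, averaged 595 ± 295 CPM in EDN1 overexpression and 1028 ± 375 CPM in mock (SD, n = 4 each), with a log2 fold change of -0.79 (SE 0.35, unadjusted p = 0.0470). FGB, a fibrinogen chain gene, showed a log2 fold change of -0.49 (SE 0.35).

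**Figure D5:**
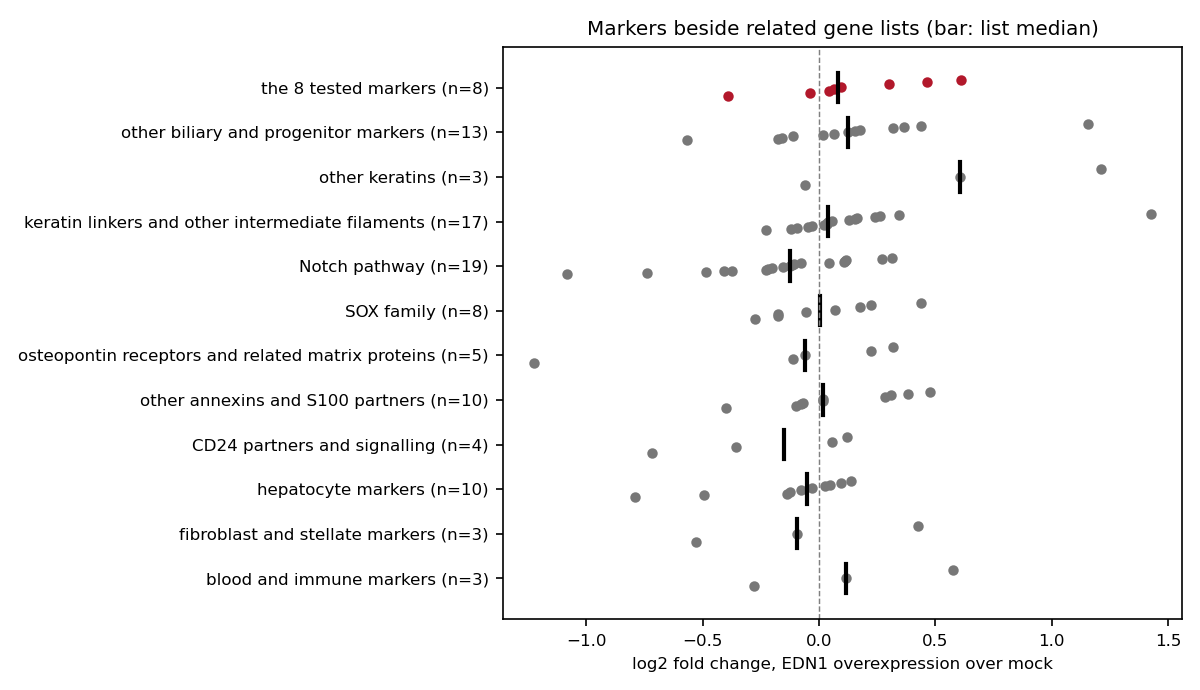
Log2 fold change, EDN1 overexpression over mock, of every tested gene in each list (points), with the median of the list (black bar); the 8 tested markers are red and n is the number tested. The medians lie between -0.15 and 0.13 apart from the other keratins, whose 3 tested genes have a median of 0.61, and 0 genes in any list passed the threshold over all tested genes. Of those keratins, KRT15 passed the low count filter only through its EDN1 overexpression libraries.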

How the data were processed

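Per the file headers, the deposited values are unnormalized counts of reads for each gene symbol, 1 column per library, with a gene length. Libraries were prepared with a Lexogen QuantSeq kit, which reads tags near transcript ends, per the labels' protocols. Per the submitters' processing notes, Bowtie2, edgeR and hg19 were used. How reads were counted, filtered or assigned to strands is not given in the sources used here.

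Rows of 1 symbol were summed (25737 rows, 24462 genes). Genes were filtered with filterByExpr (minimum count 10), scaled by TMM and compared in edgeR 4.0.16 (R 4.3.3) by the quasi-likelihood test, with group as sole term. P-values were adjusted by Benjamini-Hochberg over all 12577 tested genes, with a threshold of 0.05. The script was tested on simulated data. Standard errors are the fold change divided by the root of the F statistic. CPM of single genes uses TMM-scaled sizes, while sums over marker lists and the floor (3 counts) use unscaled totals. Log2 CPM has a pseudocount of 0.5.

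The members and lists were chosen with earlier results of these data known. Beside the 9 members, genes were named as the 2 of each list with the smallest p, the 3 nearest genes (mean of at least 10 CPM) of the 2 most variable members, or, where stated, for their level or absence. Some listed genes are counted in the list totals but are not reported here by name. Alternatives were other scalings, no filter, DESeq2 1.42.0, limma voom (limma 3.58.1), the replicate number as a block, the library sets, library size and leaving out each library. Any 2 libraries differed by more than sampling noise (chi-square over degrees of freedom 6.49 to 92.7). Promoters came from RefSeq (GRCh38.p14), which matched 4 of the 9 members.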

Additional observations from a re-analysis of the deposited data

Results flagged for a closer look

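The log2 difference between KRT8 and KRT18 in mock 4 was -2.55, while the other 3 mock libraries lay between -2.16 and -2.10. The gap to the nearest of them was 0.863 of the range of the mock group (above the 95% critical value of Dixon's test for 4 samples). Of 20 groups of 4 examined this was the only one marked, and chance marks about 1 in 20. In EDN1 overexpression the same difference was -1.73, -1.85, -2.29 and -2.65 in libraries 1 to 4.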

How the results depend on the processing

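Over 20 alternatives, 0 of the 8 tested markers passed the threshold, and the smallest adjusted p of any marker was 0.803. The number of genes called over the whole table was 1 in all alternatives but DESeq2, which called 3. Of 160 fold changes of the markers under alternatives, 146 kept their direction, and those of KRT19, SOX9, CD24 and ANXA4 kept it throughout. KRT8 turned to -0.27 in the shallower libraries alone. KRT18 turned to 0.0688 in the deeper libraries alone and to 0.000323 with the log2 library total as a term. KRT23 turned to -0.0194 in the second library set alone, -0.0359 in the deeper libraries alone and -0.0189 with the log2 library total. SPP1 turned to -0.12 in the second set alone and -0.0457 in the deeper libraries alone. Leaving out each library gave log2 fold changes from -0.11 to 0.26 for KRT8, -0.15 to 0.0664 for KRT18, -0.20 to 0.25 for KRT23 and -0.0232 to 0.0907 for SPP1. The KRT8 to KRT18 log2 difference between groups, 0.10, was 0.34 in the first set alone and -0.11 in the shallower libraries alone, and ran from -0.0287 to 0.28 when each library was left out. The causes of these turns were not tested.

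With the replicate number as a block, edgeR called 1 gene and 0 markers, with log2 fold changes of 0.54 for KRT19, 0.45 for CD24 and -0.43 for SOX9. The numbers share no stated origin, and the correlations of same-numbered libraries were 0.536, 0.182, -0.235 and 0.598, so they do not pair the libraries; not every library correlated best with its own number. With sign flips within numbers, the KRT8 to KRT18 difference had an exact permutation p of 0.5, where 0.125 is the smallest possible. The KRT7 to KRT19 difference was not run, since KRT7 did not pass the filter. Depth limits KRT7, at 0 to 4 counts, and CD24, at 77 to 186.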

Other observations

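Within each group, the deeper libraries had more KRT18 and KRT19, and less SOX9, than the shallower ones. KRT18 averaged 1323 CPM in the deeper and 973 CPM in the shallower EDN1 overexpression libraries, against 1257 CPM in the deeper and 1103 CPM in the shallower mock libraries. CD24 averaged 15.6 CPM in the deeper and 12.4 CPM in the shallower EDN1 overexpression libraries, against 10.7 CPM in the deeper and 9.57 CPM in the shallower mock libraries. The difference between groups on the log2 scale was 0.79 for KRT19 in the deeper libraries and 0.29 in the shallower ones, and for SOX9 it was -0.64 in the deeper and -0.22 in the shallower libraries. Whether these differences differ was not tested, and the subsets were formed after seeing the data.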
